A study of Mus musculus with 60 samples.

Results

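Calcium/calmodulin-dependent protein kinases (CaM kinases) and their inhibitors were followed here as 10 genes: the 4 subunits of CaMKII (Camk2a, Camk2b, Camk2d and Camk2g), the CaMKII inhibitors Camk2n1 and Camk2n2, the nuclear kinase Camk4, its upstream kinases Camkk1 and Camkk2, and the kinase-like protein Camkv. A CUT&RUN-seq peak belonged to a gene when the deposited annotation gave it that gene's symbol, whatever the peak's position or height. These genes held 268 of the 256375 peaks in 12 peak lists, 135 for H4K8ac and 133 for H3K27me3. All 133 H3K27me3 peaks belonged to Camk2d, and Camk2n2 had no peak of either mark.

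CUT&RUN-seq cuts and releases DNA next to an antibody-bound histone in isolated nuclei. Nuclei came from the hippocampus of Emx1-NuTRAP mice, the genotype of every group, in which Cre under the Emx1 locus tags nuclei of mainly excitatory forebrain neurons and also of progenitors and some glia. All mice were male. From postnatal day 21 to 41 the exercised groups (early-life exercise, ELE) were housed with a running wheel, and sedentary mice of the same age were housed without it. Each condition had 3 arms: SIT, in which nuclei and RNA were isolated from 1 homogenate of both hippocampi, and left separate and right separate, in which nuclei came from the hippocampus of that side alone. The labels give 4 samples for each SIT group and 3 for each separate group, but each group's peaks were deposited as 1 list. The methods leave out some animals of both conditions and some exercised H4K8ac libraries of the SIT and separate isolations, so a list may rest on fewer samples. No replicate error could be had within an arm, and the depth behind each list is unknown.

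The lists differed in length, from 12168 to 38136 peaks for H4K8ac, with the 2 exercised separate lists the shortest, and from 9899 to 25693 for H3K27me3. The longer list of each mark was the exercised one in the SIT arm and the sedentary one in the right separate arm, while in the left separate arm it was the sedentary list for H4K8ac and the exercised list for H3K27me3. Inhibitory neuron markers were listed for H3K27me3 as 5 of 6 genes in every list and for H4K8ac as 0 to 2 of 6, with Gad2, Slc32a1 and Pvalb at 0 in all H4K8ac lists, Sst in 4 of them, Gad1 in 2 and Vip in 1. Excitatory neuron markers, here Slc17a7, Neurod2, Neurod6, Emx1, Grin1, Dlg4, Snap25 and Thy1, were listed for H4K8ac as 4 to 7 of 8 genes. The paper names Dlg4 and Thy1 as neuronal genes, so these markers are not of excitatory neurons alone. Astrocyte markers were listed for H4K8ac as 1 to 6 of 6, and oligodendrocyte and microglia markers as 1 to 3 of 6 each. Of the glial markers, Aqp4, Mbp and P2ry12 had H4K8ac in all 6 lists. For H3K27me3 the same lists gave 1 to 2 excitatory markers, Thy1 in 6 lists and Emx1 in 5, 3 to 4 astrocyte, 2 oligodendrocyte and 2 to 3 microglia markers. Of all protein-coding genes, 19.6 to 41.2% were listed for H4K8ac, depending on the list, and 13.3 to 24.5% for H3K27me3. The part of other cell types in the results below was not tested. In pooled nuclei, a mark carried by fewer cells and a weaker mark in each cell cannot be told apart.

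When calcium enters a neuron it binds calmodulin, which opens the kinase domain of CaMKII, a holoenzyme assembled from alpha, beta, delta and gamma subunits that is abundant at excitatory synapses. CaMKII can phosphorylate itself and stay active after calcium has fallen, a property long tied to synaptic potentiation and hippocampal memory. Camk2n1 and Camk2n2 are small proteins that bind and block the active kinase. Camk4 acts largely in the nucleus, where it phosphorylates CREB, and Camkk1 and Camkk2 activate it. H4K8ac is an acetylation found at active promoters and enhancers, and H3K27me3 is the methylation laid down by Polycomb proteins at silent genes.

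The sequences on which the results turn were read from the RefSeq GRCm38 genome, in lower case with each CG dinucleotide in capitals. The windows of 300 bases are the centres of bases that peaks of several lists shared, for Camkv of those outside exons, and are shown because they recurred across conditions and arms. The promoters of 250 bases end just before the RefSeq start, and are shown because they stayed largely outside the peaks of either mark. The Camk2n1 upstream window lay at chr4:138447777-138448076 (+ strand), between Mul1 and Camk2n1, inside the H4K8ac peaks of all 6 lists. The Camk2n1 downstream window lay at chr4:138494426-138494725 (+ strand), between Camk2n1 and Vwa5b1, inside the H4K8ac peaks of 5 lists. The Camk2b window lay at chr11:6087874-6088173 (+ strand), upstream of a gene read from the minus strand, and also in 5 lists. The Camkv window lay at chr9:107932768-107933067 (+ strand), between Actl11 and Camkv, in all 6. The Camk2d window lay at chr3:126609260-126609559 (+ strand), in an intron of Camk2d, inside the H3K27me3 peaks of all 6 lists. The Camk2d promoter lay at chr3:126596701-126596950 (+ strand) and the Camk2n2 promoter at chr16:20621279-20621528 (- strand, printed in the gene's direction).
Camk2n1 upstream: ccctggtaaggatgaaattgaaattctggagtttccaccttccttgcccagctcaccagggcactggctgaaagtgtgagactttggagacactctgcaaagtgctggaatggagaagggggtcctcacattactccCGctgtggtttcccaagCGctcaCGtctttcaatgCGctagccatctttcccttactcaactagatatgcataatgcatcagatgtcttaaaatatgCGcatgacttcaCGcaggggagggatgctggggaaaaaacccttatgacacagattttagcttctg
Camk2n1 downstream: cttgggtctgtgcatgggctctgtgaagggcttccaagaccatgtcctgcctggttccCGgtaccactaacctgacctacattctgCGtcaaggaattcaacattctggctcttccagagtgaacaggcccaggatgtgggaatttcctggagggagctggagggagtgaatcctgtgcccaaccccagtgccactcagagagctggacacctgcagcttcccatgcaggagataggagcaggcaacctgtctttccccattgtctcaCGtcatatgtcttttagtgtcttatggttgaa
Camk2b upstream: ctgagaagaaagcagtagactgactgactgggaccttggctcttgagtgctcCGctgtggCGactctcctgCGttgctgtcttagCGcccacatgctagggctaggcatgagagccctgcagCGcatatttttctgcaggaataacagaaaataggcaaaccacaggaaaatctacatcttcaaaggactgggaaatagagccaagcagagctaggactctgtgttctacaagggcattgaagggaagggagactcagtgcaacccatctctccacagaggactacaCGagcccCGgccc
Camkv upstream: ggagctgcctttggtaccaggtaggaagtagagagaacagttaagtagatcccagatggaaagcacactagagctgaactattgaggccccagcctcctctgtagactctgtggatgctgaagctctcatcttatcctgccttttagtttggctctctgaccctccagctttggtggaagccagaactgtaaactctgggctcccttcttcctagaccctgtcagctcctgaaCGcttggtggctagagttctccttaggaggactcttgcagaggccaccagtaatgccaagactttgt
Camk2d H3K27me3 window: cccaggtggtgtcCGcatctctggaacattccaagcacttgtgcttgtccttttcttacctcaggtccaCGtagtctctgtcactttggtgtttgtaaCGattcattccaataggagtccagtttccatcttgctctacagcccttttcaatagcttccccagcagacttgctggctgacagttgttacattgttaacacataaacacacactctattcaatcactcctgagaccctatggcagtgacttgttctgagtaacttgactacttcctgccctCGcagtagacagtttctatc
Camk2d promoter: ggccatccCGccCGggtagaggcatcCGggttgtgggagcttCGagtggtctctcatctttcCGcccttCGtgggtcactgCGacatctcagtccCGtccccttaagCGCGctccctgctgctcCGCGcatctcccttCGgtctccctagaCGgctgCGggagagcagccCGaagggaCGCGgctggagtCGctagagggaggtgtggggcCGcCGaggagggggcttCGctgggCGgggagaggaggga
Camk2n2 promoter: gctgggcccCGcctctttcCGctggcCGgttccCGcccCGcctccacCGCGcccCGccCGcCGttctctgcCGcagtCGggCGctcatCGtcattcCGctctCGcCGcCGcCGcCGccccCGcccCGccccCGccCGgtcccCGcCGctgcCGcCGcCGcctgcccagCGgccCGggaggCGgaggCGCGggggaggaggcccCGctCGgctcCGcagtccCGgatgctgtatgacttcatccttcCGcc

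Among the acetylated windows there were 6 CG in the Camk2n1 upstream window, 3 in the Camk2n1 downstream window, 7 in the Camk2b window and 1 in the Camkv window. The median over the centres of 155960 H4K8ac peaks was 3 CG in 300 bases. The Camk2d window under H3K27me3 held 4. The printed promoters held more, with 23 in the Camk2d promoter and 39 in that of Camk2n2, against a median of 6 over 32851 RefSeq promoters of the same length. Of the 6 members that the promoter table holds, Camk2b had 44 CG, Camkk2 32, Camkk1 29 and Camkv 18. The letters TGACG, a CRE half-site, matched at 2 places in the Camk2n1 downstream window on either strand, and at least 1 match was present in 11% of all H4K8ac centres. CAGATG, an E-box bound by NEUROD factors, matched at 1 place each in the Camk2n1 upstream and the Camkv windows, against 23.7% of all centres with a match. TGANTCA, the AP-1 motif, matched in none of these windows and in 10.2% of all centres. The Camk2n2 promoter held 1 TGACG match, a motif present in 17.8% of RefSeq promoters. All were searched on both strands, no motif of the 3 holds another, and the matches describe the letters only.

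**Figure D1:**
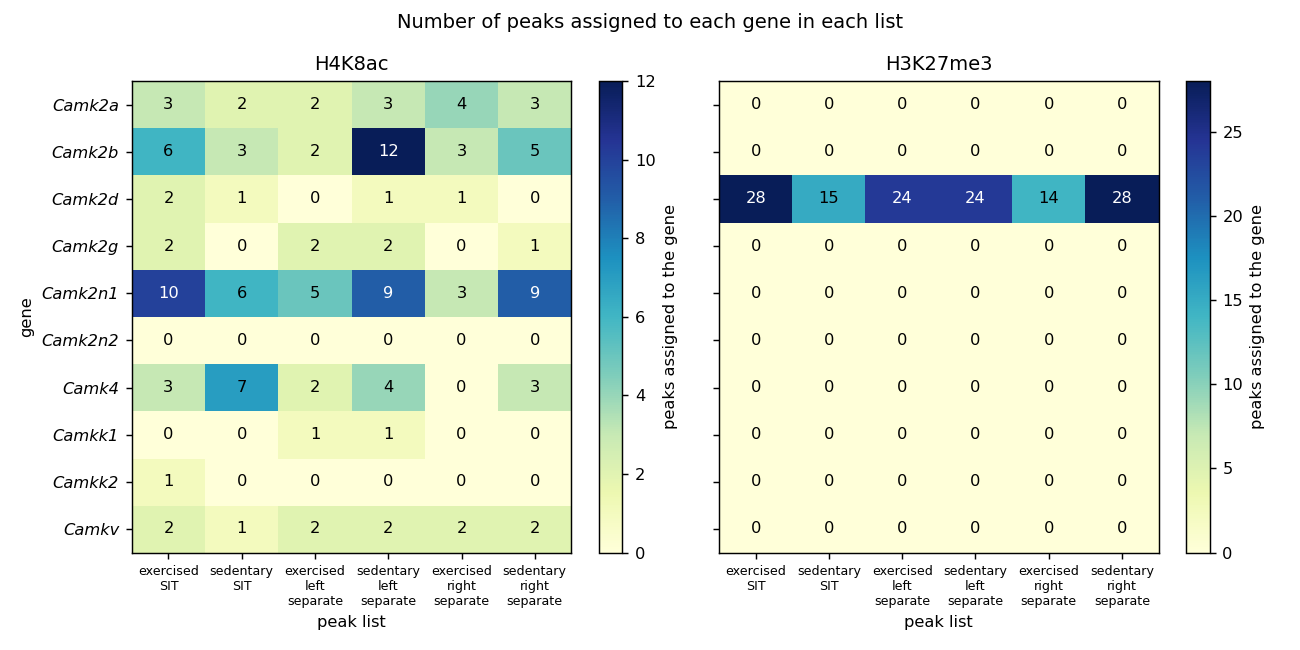
Number of peaks assigned to each gene (rows) in each of the 12 peak lists (columns), with H4K8ac on the left and H3K27me3 on the right and a separate colour scale for each mark. Camk2n1 and Camk2b hold most H4K8ac peaks, Camk2d holds every H3K27me3 peak, and the row of Camk2n2 is 0 throughout.

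For H4K8ac, 5 to 8 of the 10 genes were listed in a list, that is, had at least 1 peak. In the SIT arm 8 were listed in the exercised list, where 41.2% of all protein-coding genes were, and 6 in the sedentary list, where 32.8% were. In the left separate arm 7 were listed in the exercised list (background 19.6%) and 8 in the sedentary list (39.4%). In the right separate arm 5 were listed in the exercised list (22.1%) and 6 in the sedentary list (31.6%). Camk2a, Camk2b, Camk2n1 and Camkv had H4K8ac in all 6 lists, 4 of 10 members against 12.4% of protein-coding genes, Camk4 in 5, Camk2d and Camk2g in 4, Camkk1 in 2 and Camkk2 in 1.

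For H3K27me3, 1 of the 10 genes, Camk2d, was listed in every list. The backgrounds over protein-coding genes were 24.5% in the exercised and 14.5% in the sedentary SIT list, 19.7 and 17.7% in the exercised and sedentary left separate lists, and 13.3 and 23.0% in the exercised and sedentary right separate lists. The other 9 genes lay far from this mark: the nearest H3K27me3 peak to the start of any of them was 25447 bp away, at Camkk1 in 1 list.

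The first question of the design, whether ELE moved these marks, was asked of the members by setting the exercised list beside the sedentary list of the same arm. In the SIT arm the members had 29 H4K8ac peaks in the exercised and 20 in the sedentary list. In the left separate arm they had 16 and 34, and in the right separate arm 13 and 23. The exercised list thus held 59.2% of the members' H4K8ac peaks in SIT (exact 95% binomial interval 44.2 to 73.0%), 32% in left separate (19.5 to 46.7%) and 36.1% in right separate (20.8 to 53.8%). The same shares over all H4K8ac peaks were 55.7, 25.0 and 35.3%, each within the members' interval. The interval covers counting error only, and neighbouring peaks of a gene are not independent.

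When the longer list of an arm was reduced to its widest peaks so that both lists had equal numbers, the members had 23 exercised and 20 sedentary H4K8ac peaks in SIT, 16 and 11 in left separate and 13 and 10 in right separate. The exercised share was then 53.5% in SIT (37.7 to 68.8%), 59.3% in left separate (38.8 to 77.6%) and 56.5% in right separate (34.5 to 76.8%). Equal lengths set the share over all peaks to 50% in every arm, a value within each of these intervals.

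For H3K27me3, where Camk2d supplied every peak, the exercised and sedentary lists held 28 and 15 peaks in SIT, 24 and 24 in left separate and 14 and 28 in right separate. The exercised shares were 65.1% (49.1 to 79.0%), 50% (35.2 to 64.8%) and 33.3% (19.6 to 49.5%). Over all H3K27me3 peaks they were 71.4, 55.8 and 31.2%. The direction thus differed between SIT and right separate, in the members as in the whole lists. At equal list lengths the numbers were 18 and 15, 17 and 24, and 14 and 18. Over the 3 arms, the exercised minus sedentary number of member peaks was -6.33 ± 13.9 for H4K8ac and -0.333 ± 13.5 for H3K27me3 (mean ± SD over arms). These numbers were not adjusted for list length, so a test on them cannot tell ELE from list length. An exact two-sided permutation test that swapped the conditions within arms gave p = 0.5 for H4K8ac and p = 1.0 for H3K27me3, and 3 arms cannot give a p below 0.25.

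**Figure D2:**
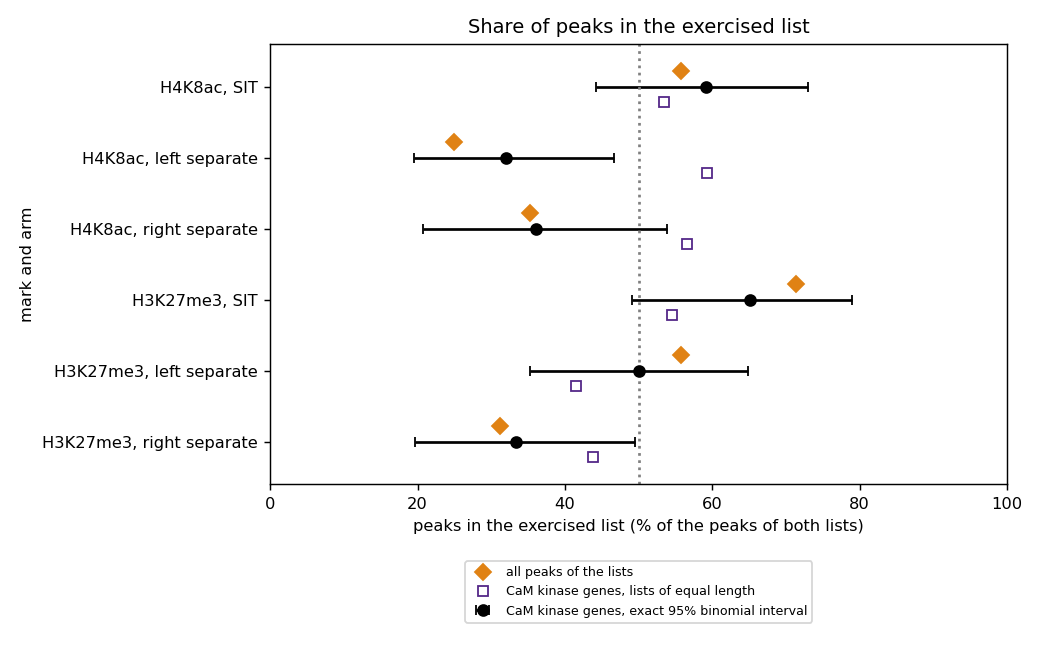
Share of peaks found in the exercised list (x axis, % of the peaks of both lists of an arm) for each mark and arm (y axis). Black points with exact 95% binomial intervals are the CaM kinase genes, diamonds all peaks, and open squares the CaM kinase genes with both lists at equal length. Each diamond lies within the interval beside it. The dotted line at 50% is the share over all peaks at equal length, and the open squares lie between 41.5 and 59.3%.

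Gene by gene, 4 of the 9 members with H4K8ac, Camk2d, Camk2g, Camk4 and Camkk2, were listed in 1 condition alone in at least 1 arm. In SIT, Camk2g and Camkk2 were gained, meaning listed in the exercised list only, 2 of the 8 members listed in that arm, where 27.5% of all listed genes were gained. None was lost in SIT (background 10.1%). In left separate, Camk2d was lost, 1 of 8 members against 51.9% of all listed genes, and none was gained (3.58%). In right separate, Camk2d was gained, 1 of 7 members against 9.14%, and Camk2g and Camk4 were lost, 2 of 7 against 36.7%. Camk2d and Camk2g each went opposite ways in 2 arms, and no member was gained or lost the same way in all 3 arms. These calls changed with the peaks kept: among the widest 50% of each list Camk2a and Camk4 were lost and only Camkk2 was gained in SIT, and at equal list lengths Camk2a, Camk2g and Camk4 were gained and none was lost in left separate. Camk2d had H3K27me3 in both conditions of every arm.

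Over the gene bodies with 3 kb on either side, H4K8ac peaks covered 2.96% of the bases of the 10 loci in the exercised and 2.25% in the sedentary SIT list. They covered 2.4 and 4.16% in left separate and 1.75 and 2.95% in right separate. H3K27me3 covered 17.0 and 7.96% in SIT, 11.3 and 10.8% in left separate and 4.60 and 13.5% in right separate. Here a peak counted whichever gene it had been assigned to, and each direction was that of the summed lengths of the whole lists.

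Among the CaMKII subunits, Camk2a, the alpha subunit that dominates the forebrain holoenzyme, had 3 H4K8ac peaks in the exercised and 2 in the sedentary SIT list, 2 and 3 in left separate, and 4 and 3 in right separate. The exercised and sedentary values overlapped, at 2 to 4 and 2 to 3 peaks. The acetylation sat upstream of the gene: a place from -7.7 to -4.1 kb, at and beyond the end of the neighbouring gene Arsi, was a peak in all 6 lists. Distances are from the GENCODE start of the gene, negative upstream. A second place from -3.2 to -0.2 kb was a peak in both SIT lists and both right separate lists and in neither left separate list. Inside the gene, a place from 9.4 to 12.7 kb was a peak in both left separate lists and the sedentary right separate list. The start of Camk2a itself, at position 60925618 of chromosome 18, was in no H4K8ac peak.

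Camk2b, the beta subunit, which binds actin and holds the enzyme in spines, had the widest range. Its H4K8ac peaks numbered 6 in the exercised and 3 in the sedentary SIT list, 2 and 12 in left separate, and 3 and 5 in right separate. The sedentary left separate list stood apart, with 9 of its 12 peaks inside the 96.7 kb gene, all at 30.5 kb or farther from the start, but the other two sedentary lists overlapped the exercised lists. The Camk2b place that recurred most, from -23.3 to -18.0 kb, was a peak in 5 lists and absent from the exercised right separate list. Its peaks ran from 2538 to 4524 bp and were the gene's widest in 4 of these lists, all but exercised left separate, and 300 of the bases that the 5 lists shared are printed above. Places from -10.2 to -8.3 kb and from -2.4 to -0.1 kb were peaks in the same 3 lists, exercised SIT, sedentary left separate and exercised right separate. The CG-rich Camk2b promoter window lay in no peak of either mark.

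Camk2g, the gamma subunit, had 2 and 0 H4K8ac peaks in the exercised and sedentary SIT lists, 2 and 2 in left separate, and 0 and 1 in right separate. Of its 5 places, all inside the gene, 4 were peaks in 1 list each. The remaining place, from 4.4 to 8.6 kb, was a peak in exercised SIT, exercised left separate and sedentary right separate.

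Camk2d, the delta subunit, which is also the main CaMKII of heart, had 2 and 1 H4K8ac peaks in the exercised and sedentary SIT lists, 0 and 1 in left separate, and 1 and 0 in right separate. All 5 peaks were intronic and narrow, from 1052 to 1531 bp, and the nearest H4K8ac peak to the gene's start was 42244 bp away. Only 1 place recurred, from 127.1 to 128.7 kb, in the exercised lists of SIT and right separate.

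**Figure D3:**
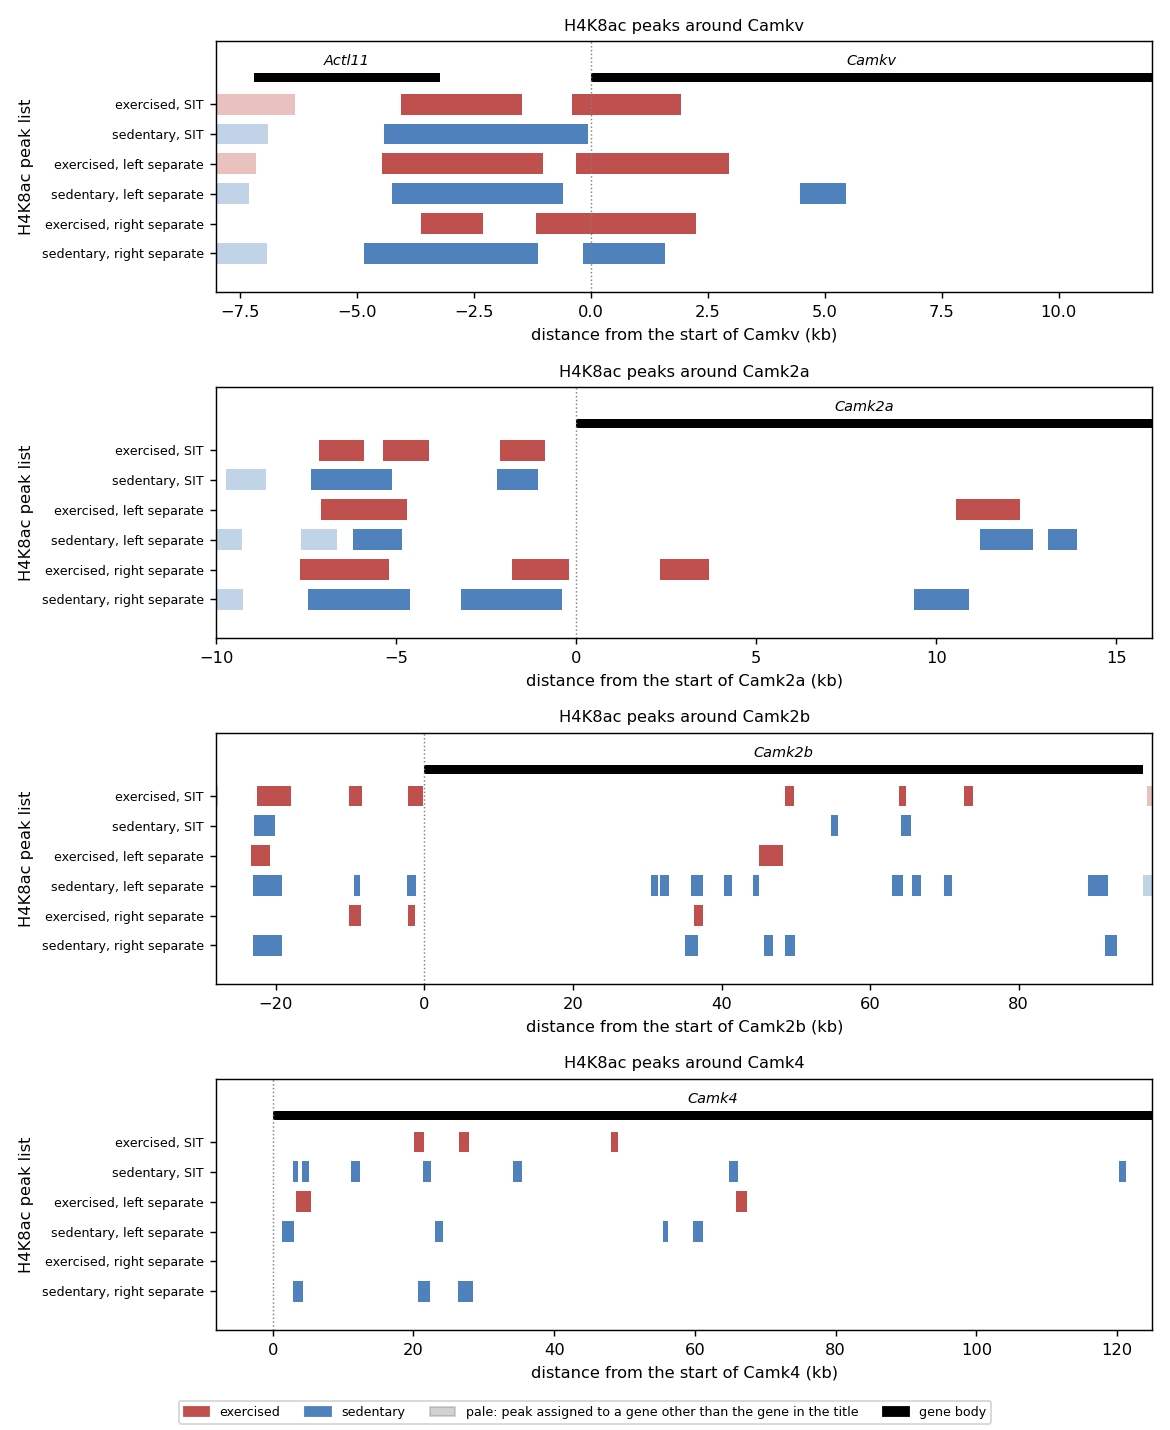
H4K8ac peaks around Camkv, Camk2a, Camk2b and Camk4, with 1 row per peak list (red, exercised; blue, sedentary) and the distance from the gene's start in kb on the x axis (dotted line, 0). Black bars are the genes named above them, and pale bars are peaks assigned to other genes. Peaks of Camkv cover its start in 4 of 6 lists, while those of Camk2a and Camk2b lie upstream or inside the gene, and those of Camk4 inside it.

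The inhibitors differed from each other. Camk2n1 had 10 and 6 H4K8ac peaks in the exercised and sedentary SIT lists, 5 and 9 in left separate, and 3 and 9 in right separate, 42 in all and the most of any member. Of these, 41 were distal intergenic, and 1, in the exercised SIT list, was a promoter peak from 0.7 to 2.1 kb. By number of distal intergenic peaks Camk2n1 ranked between 80 and 292 among the genes with such a peak in a list (1697 to 3860 genes), where the median gene had 1 or 2. Camk2n1 is a gene of only 5.8 kb. Counts by nearest gene can grow with the empty space beside a gene, which was not tested here.

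That space is the 105.2 kb between the end of Camk2n1 and Vwa5b1 (chromosome 4, 138460124 to 138565359). H4K8ac peaks in it numbered 16 in the exercised and 14 in the sedentary SIT list, 10 and 16 in left separate, and 5 and 14 in right separate. They covered 44.2 and 23.0% of its bases in SIT, 19.2 and 37.7% in left separate, and 8.40 and 30.8% in right separate. The nearest-gene rule split this run, so that peaks beyond the Camk2n1 place ending at 61.2 kb went to Vwa5b1: 8 and 9 peaks in SIT, 6 and 8 in left separate, and 3 and 6 in right separate. Bases covered in all 6 lists formed 3 segments, at 70.5 to 71.0, 82.9 to 84.2 and 99.7 to 101.6 kb from the start of Camk2n1, all in the portion assigned to Vwa5b1. No H3K27me3 peak lay in this space in any list.

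Of the Camk2n1 places, the upstream place from -8.2 to -5.2 kb was a peak in all 6 lists, each with 1 peak of 1163 to 2371 bp. Their shared bases hold the Camk2n1 upstream window. The place from 36.1 to 43.1 kb was a peak in 5 lists and held the widest peaks of the gene, from 2935 bp in sedentary SIT to 6569 bp in exercised SIT. The places from 13.8 to 17.8, from 25.4 to 28.8 and from 58.0 to 61.2 kb were also peaks in 5 lists each. The exercised right separate list had the fewest Camk2n1 peaks and lacked 2 of the 4 downstream places found in 5 lists, and the exercised left separate list lacked the other 2. The start of Camk2n1 was in no H4K8ac peak.

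**Figure D4:**
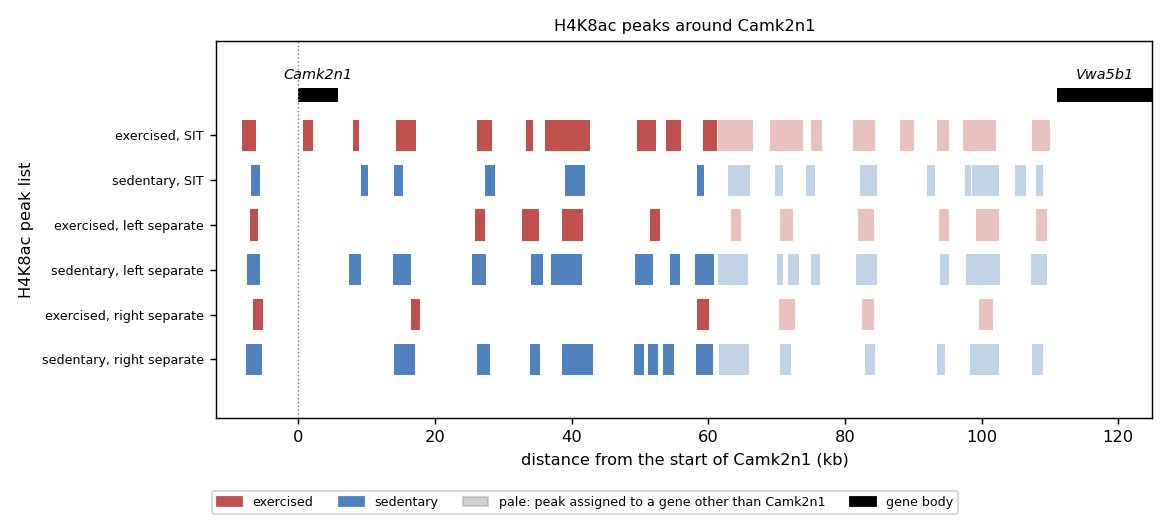
H4K8ac peaks around Camk2n1 and in the space before Vwa5b1, with 1 row per peak list (red, exercised; blue, sedentary) and the distance from the start of Camk2n1 in kb on the x axis. Full colour marks peaks assigned to Camk2n1 and pale colour peaks assigned to another gene. The run continues across the change of assignment just past 61.2 kb, and the exercised right separate list has 5 peaks in the space.

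Camk2n2, the other inhibitor, had no peak of either mark in any of the 12 lists, and none overlapped its 2.1 kb gene with 3 kb on either side. The nearest H4K8ac peak to its start lay between 72225 and 182977 bp away, depending on the list, and the nearest H3K27me3 peak between 411854 and 624931 bp. A gene absent from a peak list may still carry signal below the peak threshold, which these files do not hold. The promoter printed above, with 39 CG, had more CG than 98.4% of RefSeq promoters.

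Camk4 had 3 and 7 H4K8ac peaks in the exercised and sedentary SIT lists, 2 and 4 in left separate, and 0 and 3 in right separate. The sedentary list had more in each arm, also in SIT, where the sedentary list was the shorter one. The values of the 2 conditions touched at 3 peaks. Within the equal-length lists Camk4 was listed in both conditions of SIT, in the exercised list only of left separate and in the sedentary list only of right separate. All 19 peaks lay inside the 256.3 kb gene, none beyond 121.2 kb from the start. The place nearest the start, from 1.4 to 5.4 kb, was a peak in all 3 sedentary lists and in exercised left separate. The place from 20.0 to 22.5 kb was a peak in both SIT lists and sedentary right separate. The first kilobases also hold the antisense gene 2310026I22Rik, and the assay does not tell strands apart.

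Camkk1, an upstream kinase, had 1 H4K8ac peak in each left separate list and none in the other 4 H4K8ac lists. The 2 peaks overlapped, from 2.4 to 5.0 kb inside the gene. Camkk2, the other upstream kinase, had 1 peak, in the exercised SIT list only, from -5.9 to -4.0 kb and outside the gene. The promoter windows of both, with 29 and 32 CG, lay in no peak of either mark.

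Camkv encodes a kinase-like protein of synaptic vesicles and spines that lacks catalytic activity. It had 2 and 1 H4K8ac peaks in the exercised and sedentary SIT lists, 2 and 2 in left separate, and 2 and 2 in right separate. All 11 were promoter peaks, and their median width of 3268 bp was the largest among the members. They formed 1 place from -4.8 to 2.9 kb in all 6 lists, plus a peak from 4.5 to 5.5 kb in sedentary left separate. Within that place 1335 bp, from 107932040 to 107933374 on chromosome 9, were covered in all 6 lists, upstream of the start and reaching into Actl11. An antisense gene, Gm37974, also overlaps the start. The start of Camkv lay in a peak in the 3 exercised lists and in sedentary right separate. In sedentary SIT the peak ended 51 bp short of it, and in sedentary left separate 584 bp short.

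Peaks of Camk4 in sedentary SIT, exercised left separate and sedentary right separate covered other annotated starts of the gene. A Camk2b peak in sedentary left separate did so too. Judged by the GENCODE gene start, Camkv was the only member whose start lay in an H4K8ac peak. The count of members was therefore 1 of 10 in exercised SIT (18.5% of protein-coding gene starts), 0 in sedentary SIT (7.54%), 1 in exercised left separate (4.73%), 0 in sedentary left separate (13.0%), 1 in exercised right separate (5.89%) and 1 in sedentary right separate (11.1%). Beside Camkv, a peak of any gene came within 3 kb of the start in 4 lists for Camk2a and Camkk1. It did so in 3 for Camk2b and Camk4, and in 1 for Camk2g and Camk2n1. At Camkk1 the peak was assigned to 4732414G09Rik in exercised SIT and exercised right separate.

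H3K27me3 at Camk2d formed a broad, broken domain. The 133 peaks ran from -65.1 to 232.8 kb, a span of 297.9 kb that begins upstream of the gene and stops 17.2 kb before the end of its body of 250 kb (chromosome 3, 126596302 to 126846326). The summed width of its peaks was 196.1 kb in the exercised and 96.6 kb in the sedentary SIT list, 131.5 and 120.3 kb in left separate, and 61.9 and 156.6 kb in right separate. The exercised SIT and sedentary right separate lists were the highest and exercised right separate the lowest, so the conditions overlapped. The ratio of exercised to sedentary width was 2.03 in SIT, 1.09 in left separate and 0.395 in right separate, beside 1.88, 1.25 and 0.360 for the summed width of the whole lists. Of every 10 kb of a list's peaks, Camk2d peaks took 14.5 bases in exercised and 13.4 in sedentary SIT, 14.2 and 16.3 in left separate, and 15.0 and 13.7 in right separate. The exercised list was the higher one in SIT and right separate and the lower one in left separate.

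The domain of the shorter list lay mostly inside that of the longer list. In SIT, 92.6 kb were covered in both conditions, 95.9% of the sedentary bases and 47.2% of the exercised bases. In left separate 89.7 kb were shared, 68.2% of the exercised and 74.6% of the sedentary bases. In right separate 53.4 kb were shared, 86.2% of the exercised and 34.1% of the sedentary bases. Bases covered in the exercised list alone came to 103.4, 41.8 and 8.50 kb in SIT, left and right separate, and those in the sedentary list alone to 4, 30.6 and 103.2 kb.

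In each of the 6 lists, the same 31.2 kb of Camk2d were covered, 14.0% of the 223.6 kb covered in any list. They fell in 11 segments, 3 upstream with 10.3 kb and 8 inside the gene with 20.9 kb. The widest segment, of 7005 bp, lay from -35.2 to -28.2 kb. The next, of 6568 bp, lay from 9.8 to 16.4 kb in an intron, and the Camk2d window printed above is its centre. Only 84 bp of these shared bases were exonic.

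The GENCODE start of Camk2d was spared in 5 of the 6 H3K27me3 lists. The uncovered gap around it was 2.90 kb in exercised and 25.7 kb in sedentary SIT, 15.0 and 19.1 kb in left separate, and 25.4 kb in exercised right separate. In exercised SIT a peak from 0.9 to 8.2 kb covered another annotated start of the gene. In sedentary right separate a peak covered the GENCODE start. That list was also the only one in which a peak overlapped the CG-rich promoter window. The deposited annotation calls 26 of the 133 peaks promoter peaks, most of which lay 169.9 kb or more from the gene's start, near other annotated starts.

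By number of H3K27me3 peaks Camk2d ranked between 45 and 96 among 3506 to 6472 listed genes, and by summed width between 68 and 112. Its peaks formed 22 merged places, of which 8 were found in all 6 lists, beside 16.7% of 27261 H3K27me3 places over the genome. Peaks of a broad domain merge into long places, so the shares are not of like units.

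Of the 5 H4K8ac peaks in Camk2d, 2 touched H3K27me3 of the matching list: the exercised SIT peak from 96.5 to 97.7 kb by 553 bp and the sedentary left separate peak from 42.2 to 43.5 kb by 946 bp. The other 3, among them the recurring place from 127.1 to 128.7 kb, overlapped no H3K27me3 peak of any list. Outside the domain, the nearest H4K8ac peak upstream was assigned to Arsj, between 117.7 and 163.4 kb away, and the nearest downstream to Ank2, between 89.4 and 163.1 kb away.

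**Figure D5:**
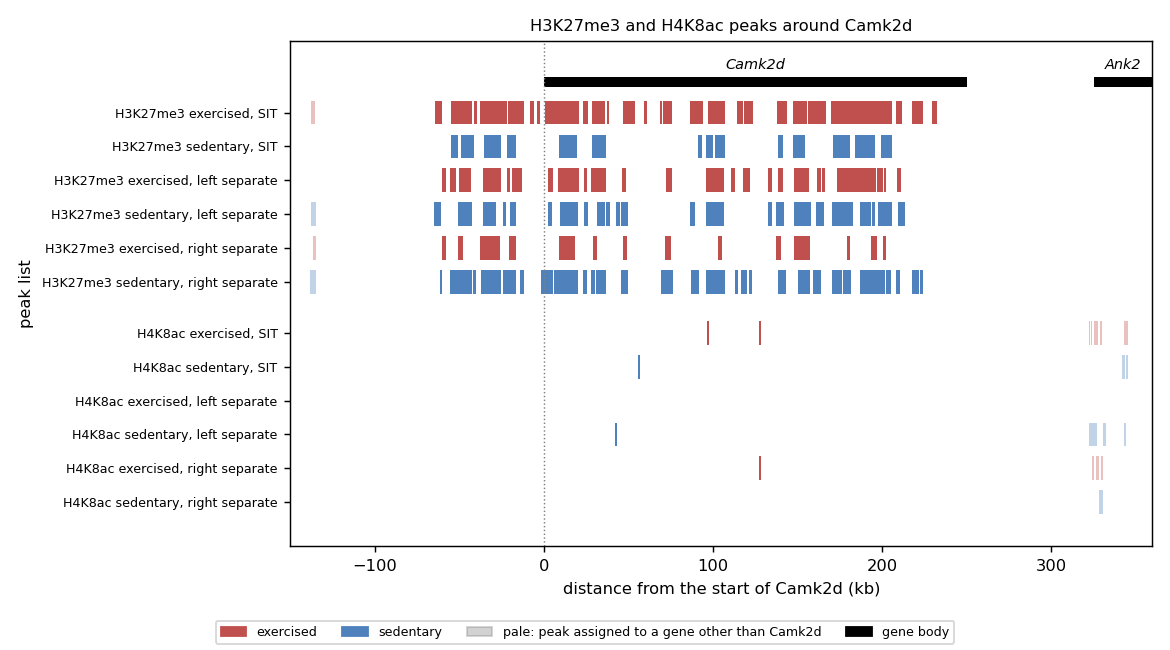
H3K27me3 (upper rows) and H4K8ac (lower rows) peaks around Camk2d, with 1 row per peak list (red, exercised; blue, sedentary) and the distance from the start of Camk2d in kb on the x axis. Full colour marks peaks assigned to Camk2d and pale colour peaks of other genes. H3K27me3 runs from -65.1 to 232.8 kb with gaps, most lists leave the start free, and H4K8ac appears in 5 narrow peaks.

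The second question, whether left and right hippocampi and the SIT and separate isolations gave like peaks, was asked by overlap of at least 1 bp within a condition. Of the exercised H4K8ac member peaks of SIT, 37.9% were found in left separate and 37.9% in right separate, and over all exercised SIT peaks 25.4 and 27.1% were. Of the exercised left separate member peaks 62.5% were found in SIT and 25.0% in right separate, with 79.8 and 46.0% over all peaks. Of the exercised right separate member peaks 76.9% were found in SIT and 30.8% in left separate, with 78.0 and 42.4% over all peaks. In the sedentary lists, 41.2% of the left separate member peaks were found in right separate and 65.2% the other way, with 46.2 and 64.1% over all peaks. Of the sedentary SIT member peaks 50% were found in left separate and 60% in right separate, with 51.7 and 48.7% over all peaks. Of the sedentary member peaks of left and right separate, 29.4 and 52.2% were found in SIT, with 41.5 and 54.6% over all peaks. The 2 exercised separate lists thus shared 4 member peaks of 16 and of 13.

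For H3K27me3 at Camk2d, all 14 peaks of the exercised right separate list were found in both other exercised lists, where 96.7% of all exercised right separate peaks were found in SIT and 90.1% in left separate. Of the 24 exercised left separate peaks 87.5% were found in SIT and 58.3% in right separate. In sedentary mice 91.7% of the left separate peaks were found in right separate and 67.9% the other way. These 4 values stood beside 88.4, 38.4, 90.2 and 52.6% over all peaks of the same lists. Of the exercised SIT peaks of Camk2d 64.3% were found in left separate and 50% in right separate, with 55.5 and 26.1% over all peaks. Of the sedentary SIT peaks 86.7% were found in left separate and 93.3% in right separate, with 81.3 and 96.0% over all peaks. In the other direction, 58.3% of the sedentary left separate and 53.6% of the sedentary right separate peaks were found in SIT, with 67.3 and 45.7% over all peaks.

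The members' H4K8ac peaks merged into 56 places over the 6 lists. Of these, 28 were found in 1 list only and 3 in all 6, beside 49.9% in 1 list and 5.99% in all 6 of the 63514 H4K8ac places over the genome. The 3 were the upstream places of Camk2a and Camk2n1 and the place across the start of Camkv. Camk2n1 had 5 of its 11 places in 5 or 6 lists, whereas Camk4 had none of its 11 and Camk2b 1 of its 15.

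The other genes of the pathway were 31 in all. Calm2, which encodes the calcium sensor calmodulin, had 8 and 7 H4K8ac peaks in the exercised and sedentary SIT lists, 4 and 8 in left separate, and 6 and 9 in right separate. Of 9 other calmodulin-dependent kinases 3 to 7 were listed for H4K8ac, and of 6 calcineurin subunits and regulators, which oppose the kinases, 2 to 5 were. Of the 3 calmodulin-binding proteins Nrgn, Gap43 and Pcp4 there were 2 to 3, of 7 substrates and partners 5 to 6, and of 3 doublecortin-like kinases 2 to 3. The backgrounds are the shares of protein-coding genes listed, given above.

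In all, 16 of the 31 pathway genes had H4K8ac in all 6 lists, where 12.4% of protein-coding genes did, among them Calm2, Calm3, Camk1d, Camk1g and Creb1. Creb1, the transcription factor that Camk4 phosphorylates, had 3 and 1 H4K8ac peaks in the exercised and sedentary SIT lists, 2 and 7 in left separate, and 2 and 3 in right separate. Presence over the 12 lists was the same as that of Camk2a, Camk2b, Camk2n1 and Camkv for 13 pathway genes, the same as that of Camk2g for Eef2k, as that of Camkk2 for Camk1, and as that of Camk2n2 for Phkg1 and Pnck. With 12 lists, the measure of likeness was presence or absence alone.

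For H3K27me3, 7 of the 31 were listed at least once (28.1% of protein-coding genes), among them Camk1g, Dapk1, Dclk2, Dclk3, Mylk and Pcp4. Dclk2, a doublecortin-like kinase, had 2 or 3 H3K27me3 peaks and 7 to 14 H4K8ac peaks in every list. The seventh, Rcan2, an inhibitor of calcineurin, was the closest to Camk2d in the number of its H3K27me3 peaks: 27 and 13 in the exercised and sedentary SIT lists, 15 and 11 in left separate, and 13 and 18 in right separate. Rcan2 was also the only pathway gene whose H4K8ac was lost in all 3 arms, with 2, 1 and 1 peaks in the sedentary lists of SIT, left separate and right separate and none in the exercised lists. Of all protein-coding genes 0.452% were lost and 0.073% gained in all 3 arms, and no pathway gene was gained in all 3.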

How the data were processed

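The deposited tables were 12 peak lists, 1 for each mark, condition and arm. Per the methods of the study, the authors checked reads with FastQC 0.11.9, aligned them with Bowtie2 2.4.1, called peaks with SEACR (stringent setting), annotated them to mm10 transcripts with ChIPseeker 1.8.6, counting 3 kb on either side of a start as promoter, and added symbols. They left out 4 exercised H4K8ac libraries with a high false discovery rate, 3 separate and 1 SIT. Outlying animals of both conditions were also left out. How libraries were combined is not given in the sources used here. The paper's figure captions give fewer mice for SIT than the labels do, and fewer sedentary than exercised mice. They do not tie these numbers to the deposited lists, so how many libraries stand behind each list stays unknown. Deposited columns hold each peak's start, end, width and distance to a start in bp, with no count, signal or p-value. The 20 IgG samples are not analysed here.

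Peaks were taken by symbol. The members and gene lists were chosen with earlier results of these data known. All members were named. Pathway genes were counted, and named where H4K8ac was listed in all 6 lists, H3K27me3 in any, or a gain or loss in all 3 arms (at most 6 of each in alphabetical order), or where presence in the 12 lists equalled a member's. Rcan2, past that limit for H3K27me3, was named under the losses. A pathway gene named by this rule is not reported here. Overlap meant at least 1 bp, and overlapping peaks of a mark merged into 1 place. Gene coordinates came from GENCODE M21 (GRCm38), in which 27 of 27 transcripts assigned to member peaks had the same start and end. Sequences came from RefSeq GRCm38.p6. Intervals are exact binomial at 95%. Groups followed the labels of 60 samples. With 1 list per group no test was possible within an arm, and an exact permutation test over the 3 arms was added after the data were seen. Interval functions were tested on simulated data. Alternatives were the widest 50% of each list, equal list lengths, overlap with the locus, other annotation classes, other flanks (0 or 10 kb) and reciprocal overlap of 50%. Python 3.11.15, numpy 2.4.6, pandas 2.3.3, scipy 1.17.1, pysam and matplotlib 3.10.9 were used.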

Additional observations from a re-analysis of the deposited data

Results flagged for a closer look

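The difference between exercised and sedentary mice in the number of H4K8ac peaks assigned to the CaM kinase genes ran in opposite directions between arms. It was 9 peaks more in the exercised list in SIT, -18 in left separate and -10 in right separate. The number of H3K27me3 peaks, all of Camk2d, differed by 13 in SIT, 0 in left separate and -14 in right separate. With 1 list per group the difference between arms was not tested. Whole list lengths moved the same way in 5 of these 6 cases. At equal list lengths the exercised and sedentary lists held 23 and 20 H4K8ac member peaks in SIT. They held 16 and 11 in left separate and 13 and 10 in right separate. For H3K27me3 the numbers were 18 and 15, 17 and 24, and 14 and 18. The part of list length in the result was not tested.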

How the results depend on the processing

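No paired analysis was possible because each group has 1 list, whose columns carry no replicate number, so neither a replicate block nor leaving out a replicate could be run. Of 96 values under an alternative, 72 stayed within the main value's interval or within 1.5 times it. Equal list lengths set the share over all peaks to 50%. The exercised share of H4K8ac member peaks then turned to 59.3% in left separate and moved to 56.5% in right separate. Promoter peaks alone gave 55.6% in right separate, from 5 exercised and 4 sedentary peaks, beside 37.5% over all promoter peaks. The number of members gained or lost for H4K8ac in left separate was 2 in the widest 50%, 3 at equal lengths and 2 by overlap with the locus, against 1, and in right separate 1 in the widest 50%, against 3. The direction also changed: left separate went from 0 gained and 1 lost to 3 gained and 0 lost at equal lengths, and SIT from 2 gained and 0 lost to 1 gained and 2 lost in the widest 50%, although its total of 3 was within 1.5 times the main total. With flanks of 0 or 10 kb the exercised share of covered bases kept its side of 50% in every mark and arm.

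A reciprocal overlap of 50% lowered the share of member peaks found again in another arm past the main value's interval in 17 of 24 comparisons. For exercised H4K8ac it was 13.8% of SIT peaks in left separate, 25.0% of left separate and 46.2% of right separate peaks in SIT. For sedentary H4K8ac it was 39.1% of right separate peaks in left separate, 20.0% of SIT peaks in left separate, 11.8% the other way, 35% of SIT peaks in right separate and 30.4% the other way. For exercised H3K27me3 it was 33.3% of left separate peaks in right separate, 57.1% the other way, 54.2% of left separate peaks in SIT, 14.3% of SIT peaks in right separate and 28.6% the other way. For sedentary H3K27me3 it was 37.5% of left separate peaks in right separate, 32.1% the other way, 60% of SIT peaks in right separate and 32.1% the other way. The cause was not tested. Depth and signal are unknown, so a gene without a peak cannot be called free of the mark.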
